A study of Mus musculus with 6 samples.

Results

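The genes described here are 40 genes of the cell division cycle, chosen by name and sorted by role: 11 act in DNA replication, 16 in the G2 phase and mitosis, 9 in G1 and the entry into S phase, and 4 are inhibitors of cyclin-dependent kinases. Of these, 38 were measured through a probe set that carries exactly 1 gene symbol, out of 19938 genes on the array. Cdkn1a shares its probe set with another gene, and it and Ccnb1 were not analysed here. The samples were ascending aorta and descending aorta of untreated wild-type mouse embryos of the C57BL/6 strain, taken 13.5 days postcoitum. Each segment had 3 arrays. The study set the segments against each other because their smooth muscle differs in embryonic origin, with neural crest in the ascending part and mesoderm in the descending part. Whole dissected segments were used, so every value mixes the cells of the wall with other cells of the dissection, and a smaller number of cycling cells cannot be told apart from less RNA per cell. The labels call the arrays biological replicates without naming the embryos or pools behind them, so a p-value here covers sample-to-sample spread that may be technical.

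A cell enters division when D-type cyclins with Cdk4 or Cdk6, and then E-type cyclins with Cdk2, release the E2F transcription factors from the retinoblastoma proteins. E2F factors turn on the genes that license origins and copy DNA, among them the Mcm helicase. Later in the cycle the genes of G2 and mitosis are turned on, many through paired promoter elements named the cell cycle homology region (CHR) and the CCAAT box, which is bound by NF-Y. Inhibitors of the Cip/Kip and INK4 families hold the kinases in check. In the embryonic aorta smooth muscle cells divide while they build the wall, and mature smooth muscle divides rarely.

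The 250 bases before the start of each gene were taken from the RefSeq promoter table of GRCm38.p6, which held 30 of the 38 measured genes. Mcm4, Ccna2, Aurkb, Foxm1, Ccnd1, Ccnd2, Ccne2 and Cdkn1c had no entry. Both strands were searched for CHR, spelled TTTGAA or with the spelling TTCGAA, for the motif CCAAT, and for an E2F core. The core was spelled TTGGCGC, with TTCCCGC as a further form, and with TTGCCGC as well as the form TTCGCGC also counted. At least 1 CHR match lay in the promoter of 7 of 12 mitotic genes and of 2 of 10 replication genes, against 17.1% of all 32851 promoters. CCAAT lay in 11 of 12 mitotic and 8 of 10 replication promoters, against 33.8% of all promoters. The E2F core lay in 6 of 10 replication and 2 of 12 mitotic promoters, against 7.89% of all promoters. For the 6 genes of G1 and the 2 inhibitors in the table, CHR lay in 0 promoters and the E2F core in 1 of each group. Members were counted by gene, with a match in any of its promoters, while the share over all promoters counts each promoter once. The 10 replication genes had 11 promoters and the 12 mitotic genes 12. The 6 genes of G1 had 7 and the 2 inhibitors 3. A match describes letters in the window and does not show that a factor binds there.

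The promoters below are those of the 3 mitotic genes with an entry that differed most between ascending replicates 1 and 2 (Bub1, Top2a and Mki67) and of 3 genes of replication and S-phase entry that are described later (Mcm5, Pcna and Cdk2). Capitals mark every match to CHR, CCAAT or the E2F core on either strand, and no match of one kind overlaps a match of another kind in these windows. They lie at Bub1 chr2:127831860-127832109 (minus strand), Top2a chr11:99024190-99024439 (minus strand), Mki67 chr7:135716380-135716629 (minus strand), Mcm5 chr8:75109259-75109508 (plus strand), Pcna chr2:132253181-132253430 (minus strand) and Cdk2 chr10:128705052-128705301 (minus strand) of GRCm38.p6. Each is printed 5′ to 3′ in the direction of the gene.
Bub1: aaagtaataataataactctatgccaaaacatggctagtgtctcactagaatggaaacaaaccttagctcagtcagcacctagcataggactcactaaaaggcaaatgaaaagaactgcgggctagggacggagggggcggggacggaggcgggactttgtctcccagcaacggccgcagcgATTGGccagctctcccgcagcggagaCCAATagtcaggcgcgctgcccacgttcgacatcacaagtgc
Top2a: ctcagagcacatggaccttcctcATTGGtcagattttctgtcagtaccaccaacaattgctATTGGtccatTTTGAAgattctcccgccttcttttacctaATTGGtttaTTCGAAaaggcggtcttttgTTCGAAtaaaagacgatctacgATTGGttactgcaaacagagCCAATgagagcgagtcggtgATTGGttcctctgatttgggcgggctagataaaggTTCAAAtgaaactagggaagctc
Mki67: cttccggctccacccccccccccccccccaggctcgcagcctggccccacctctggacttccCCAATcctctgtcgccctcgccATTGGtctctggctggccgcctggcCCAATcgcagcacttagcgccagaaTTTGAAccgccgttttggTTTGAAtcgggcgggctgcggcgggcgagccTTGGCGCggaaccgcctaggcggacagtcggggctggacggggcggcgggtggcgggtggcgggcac
Mcm5: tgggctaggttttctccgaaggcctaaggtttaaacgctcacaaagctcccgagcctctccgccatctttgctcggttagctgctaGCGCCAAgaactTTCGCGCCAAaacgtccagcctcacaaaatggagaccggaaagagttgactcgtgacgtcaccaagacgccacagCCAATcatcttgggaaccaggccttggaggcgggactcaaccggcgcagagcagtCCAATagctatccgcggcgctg
Pcna: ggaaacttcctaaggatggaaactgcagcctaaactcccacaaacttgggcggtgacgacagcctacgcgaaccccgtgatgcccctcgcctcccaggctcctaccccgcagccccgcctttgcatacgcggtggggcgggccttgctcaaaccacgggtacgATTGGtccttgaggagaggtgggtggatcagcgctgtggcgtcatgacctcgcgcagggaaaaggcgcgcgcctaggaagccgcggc
Cdk2: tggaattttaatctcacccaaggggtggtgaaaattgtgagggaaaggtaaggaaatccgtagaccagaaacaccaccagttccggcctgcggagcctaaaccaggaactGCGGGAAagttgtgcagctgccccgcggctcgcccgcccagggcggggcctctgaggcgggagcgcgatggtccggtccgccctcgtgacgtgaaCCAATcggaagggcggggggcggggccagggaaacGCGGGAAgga
The Top2a window holds 6 CCAAT and 4 CHR matches with 0 E2F cores, while the Mcm5 window holds 3 E2F cores and 2 CCAAT with 0 CHR matches. Mki67 carries all 3 kinds.

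Across the series, the array labelled ascending replicate 3 lay with the descending arrays: over all genes its correlation was 0.9975 with descending replicate 3 and 0.9858 with ascending replicate 2. Descending replicate 1 was the least like the other descending arrays (0.9945 and 0.9948). The counts over the members, the medians of the roles and the members with full statistics are therefore also given without ascending replicate 3. Descending replicate 1 was left out with it where a call was made. Since this array was set aside because of how it looked, a p without it is too small by an unknown amount. Smooth muscle markers were measured on all arrays, with Acta2, the smooth muscle actin, at 13.63 to 13.77. The dissected tissue also gave signal for markers of other cells. Over all 6 arrays none of these passed (limma, adjusted p of at least 0.53), where 0% of all genes did. Without ascending replicate 3, 6 of 7 mesothelial and epicardial, 3 of 6 endothelial, 2 of 6 cardiac and 2 of 6 macrophage markers passed (limma). For neural and Schwann, erythroid and smooth muscle markers this was 1 of 5, 0 of 6 and 0 of 5, against 4.68% of all genes. The neural and Schwann marker that passed was Hand2, higher in ascending aorta by 1.83. In the same fit Tubb3 differed by 0.11, and Th, Sox10 and Foxd3 by -0.53, -0.52 and -0.13. The markers of this list thus did not share a direction. The mean log2 level of 7 mesothelial and epicardial markers was 8.67 to 10.1 on the ascending and 8.30 to 8.57 on the descending arrays, and that of 6 endothelial markers 10.6 to 11.2 against 11.2 to 11.5. The mean of 6 cardiac muscle markers was 8.80 and 9.21 on ascending replicates 1 and 2 and 7.84 to 8.19 on the other arrays. The mean of 6 macrophage markers was 7.87 to 8.99 on the ascending and 8.78 to 8.96 on the descending arrays.

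Of the 38 cell cycle genes 0 had an adjusted p under 0.05 over all 6 arrays (limma), where 0% of all genes were called, and the smallest adjusted p among them was 0.53. An unadjusted p under 0.05 (limma) was reached by 2 of 38, or 5.26%, against 9.29% of all genes. These were Ccnd1 with the lower mean in ascending aorta, as for 5.33% of all genes, and Birc5 with the higher, as for 3.96%. The means were higher in ascending aorta for 19 genes and lower for 19, and the median log2 difference (ascending minus descending) was -0.0096, against -0.021 over all genes. The median size of the difference was 0.096, close to the 0.092 of all genes. Without ascending replicate 3 an unadjusted p under 0.05 was reached by 7 of 38 (limma), against 17.2% of all genes: Ccnd1 and Ccnd2 with the lower mean in ascending aorta, and Ccnd3, Cdk6, Cdk1, Birc5 and Cenpa with the higher. The 95% interval of the difference lay within 1 log2 unit of 0, a 2-fold change, for 38 of 38 genes and for 96.5% of all genes. It lay within 0.5 log2 units for 36 of 38, against 81.2% of all genes. The exceptions were Ccnd1 and Birc5. All 38 members lay above the median level of all genes, so these shares are not matched for level.

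**Figure D1:**
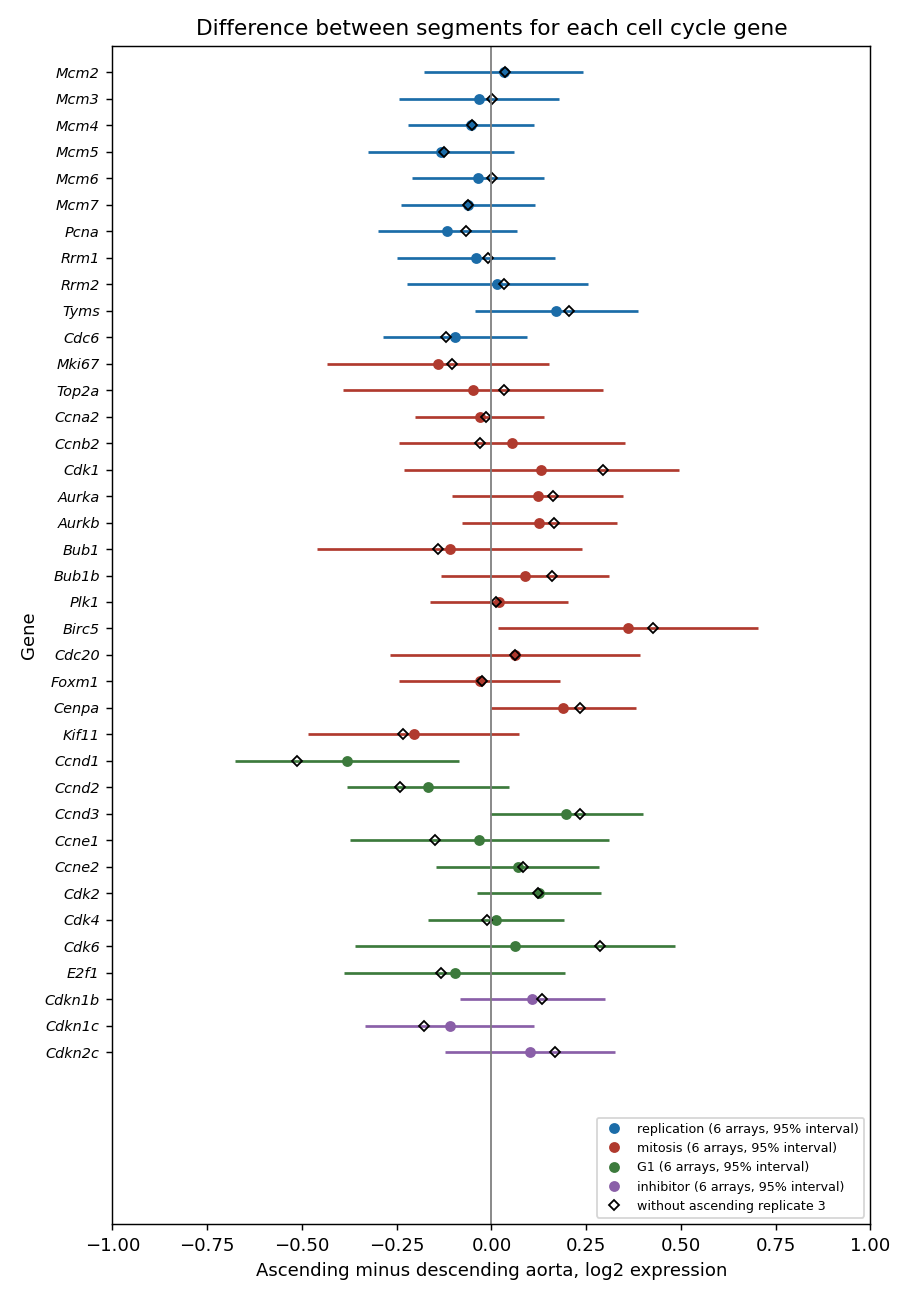
Difference in log2 expression between ascending and descending aorta for 38 cell cycle genes (points, 3 arrays per segment, bars are 95% intervals of the limma fit), coloured by role; open diamonds give the difference without ascending replicate 3. All bars lie within 1 log2 unit of 0, and Ccnd1 and Birc5 lie farthest from 0, at -0.38 and 0.36.

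Replication genes had the smallest spread within segments of the 4 roles. Their median difference was -0.0407, with 3 of 11 means higher and 8 lower in ascending aorta (median -0.010 with ascending replicate 3 left out), and 0 had an unadjusted p under 0.05 (limma). The pooled SD within segments had a median of 0.0787 over these genes, against 0.123 over all genes, which were not matched for level. The 6 subunits of the Mcm2-7 helicase, which unwinds DNA at the fork, differed by between -0.13 and 0.032. Mcm2 had the only positive difference of the 6, at 10.97, 11.16 and 11.05 in ascending and 11.11, 10.91 and 11.06 in descending aorta. Mcm3, Mcm4, Mcm6 and Mcm7 differed by -0.033, -0.053, -0.035 and -0.061. Mcm5 stood at 10.87, 11.07 and 10.95 on ascending replicates 1 to 3 and at 11.04, 11.14 and 11.11 on descending replicates 1 to 3, a difference of -0.13 ± 0.082 (SE; adjusted p = 0.617, limma). Leaving out ascending replicate 3 gave -0.13, and leaving out ascending replicate 1 gave -0.087. The ascending and descending values of Mcm5 overlapped at 11.07 and 11.04.

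Pcna, the sliding clamp that holds DNA polymerase on its template, stood at 12.55, 12.54 and 12.40 in ascending and 12.64, 12.64 and 12.56 in descending aorta. All 3 ascending values lay below all descending values by a narrow margin, and the difference of -0.12 ± 0.079 (SE) did not pass (adjusted p = 0.645, limma) and was -0.068 without ascending replicate 3. A second probe set of Pcna gave -0.12 as well. Tyms, thymidylate synthase, stood at 10.38, 10.54 and 10.36 in ascending against 10.22, 10.16 and 10.38 in descending aorta, a difference of 0.17 ± 0.092 (SE; adjusted p = 0.576, limma). Descending replicate 3 reached the ascending level of Tyms, and the difference was 0.20 without ascending replicate 3. Cdc6, which loads the helicase at origins, stood at 7.93, 7.94 and 8.001 in ascending and 8.17, 7.98 and 8.001 in descending aorta, with descending replicate 1 above the rest. It differed by -0.096 ± 0.082 (SE; adjusted p = 0.703, limma), by -0.12 without ascending replicate 3 and by -0.038 without descending replicate 1. The ribonucleotide reductase subunits Rrm1 and Rrm2, which make deoxynucleotides, differed by -0.041 ± 0.089 and 0.016 ± 0.10 (SE).

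Genes of G2 and mitosis had a median difference of 0.054, with 9 of 15 means higher in ascending aorta. The sign of that median was not stable: it was -0.02 without ascending replicate 2, -0.0019 without descending replicate 1 and -0.019 with array weights. The replication median lay below the mitotic median in each of these settings, at -0.082, -0.038 and -0.059. Without ascending replicate 3 the medians were -0.010 and 0.035. The longer lists of further genes described below had the opposite order. Over all arrays the median was 0.00047 for 41 genes of origins and replication forks and -0.030 for 53 spindle and division genes. Without ascending replicate 3 these were 0.043 and -0.021, and without descending replicate 1 they were -0.015 and -0.030. The median over all genes was -0.021 with all arrays.

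Birc5, the survivin subunit of the chromosomal passenger complex, had the largest positive difference of the members. It stood at 9.58, 9.88 and 9.53 in ascending and at 9.06, 9.30 and 9.55 in descending aorta, so that descending replicate 3 lay within the ascending range. The difference was 0.36 ± 0.15 (SE; 95% interval 0.018 to 0.70), or 1.28-fold, and did not pass (adjusted p = 0.534, limma). Without descending replicate 1, the lowest array for Birc5, it was 0.24, and without ascending replicate 3 it was 0.43. Aurkb, the kinase of the same complex, stood at 10.87, 11.06 and 10.84 in ascending against 10.83, 10.72 and 10.83 in descending aorta and differed by 0.13 ± 0.088 (SE; adjusted p = 0.651, limma). Its segments did not overlap, with 10.84 above 10.83. For Aurkb, leaving out ascending replicate 3 gave 0.17 and leaving out ascending replicate 2 gave 0.059.

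Cenpa, the histone H3 variant of the centromere, stood at 10.77, 10.71 and 10.61 in ascending and 10.42, 10.54 and 10.56 in descending aorta. The segments did not overlap and differed by 0.19 ± 0.082 (SE; adjusted p = 0.538, limma), or by 0.23 without ascending replicate 3. Kif11, the kinesin that pushes the spindle poles apart, stood at 10.05, 10.47 and 10.35 against 10.56, 10.38 and 10.54, a difference of -0.21 ± 0.12 (SE; adjusted p = 0.600, limma). Ascending replicate 1 was lowest for Kif11, and ascending replicate 2 lay above descending replicate 2. The difference of Kif11 was -0.23 without ascending replicate 3, -0.088 without ascending replicate 1 and -0.29 without ascending replicate 2. Aurka, a kinase of the spindle poles, stood at 9.84, 10.13 and 9.86 against 9.80, 9.81 and 9.86 and differed by 0.12 ± 0.097 (SE), with ascending replicate 2 above all other arrays. Cdc20, an activator of the anaphase-promoting complex, was lowest on the first array of each segment, at 10.21, 10.53 and 10.37 against 10.03, 10.40 and 10.49, and differed by 0.062 ± 0.14 (SE). Foxm1, a transcription factor of mitotic genes, stood at 9.61, 9.89 and 9.73 against 9.80, 9.77 and 9.75, and its difference was -0.031 ± 0.091 (SE). The checkpoint kinase Bub1b differed by 0.088 ± 0.095 (SE). The mitotic kinase Plk1 and the S and G2 cyclin Ccna2 were the steadiest of the group, at 11.26 to 11.45 and 11.45 to 11.58 on all arrays.

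The larger spread of the mitotic genes lay mostly within the ascending segment. Birc5, Cdc20, Ccnb2 and Ccna2 were exceptions, with a descending SD of 0.245, 0.245, 0.205 and 0.051. Their ascending SD was 0.188, 0.164, 0.154 and 0.041. Ascending replicate 2 was the highest of the 3 ascending arrays for 12 of 15 mitotic genes, against 36.1% of all genes, and it lay above ascending replicate 1 for 13 of 15, against 48.7% of all genes. Mki67, the nuclear protein used as a marker of cycling cells, stood at 10.64, 11.11 and 10.76 on ascending replicates 1 to 3 and at 10.99, 11.04 and 10.90 in descending aorta. Its difference between segments was -0.14 ± 0.13 (SE; adjusted p = 0.719, limma), while ascending replicates 1 and 2 lay 0.47 apart. That difference was -0.042 without ascending replicate 1, -0.28 without ascending replicate 2 and -0.10 without ascending replicate 3. Top2a, the topoisomerase that untangles sister chromatids, stood at 10.51, 10.99 and 10.50 against 10.63, 10.86 and 10.64. Bub1, a kinase of the spindle checkpoint, stood at 9.93, 10.51 and 10.31 against 10.51, 10.29 and 10.28. For both, the descending arrays lay between the extremes of the ascending arrays or at their upper end.

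For 13 of the 15 mitotic genes the gap between ascending replicates 1 and 2 was larger than the difference between segments, as for 60.4% of all genes. Replication genes showed the same order in smaller steps, with a median gap of 0.15 against 0.28 for mitotic genes, and for 9 of 11 ascending replicate 2 lay above replicate 1. Of the mitotic genes only Cdk1 and Cenpa went the other way. Cdk1, the kinase that drives entry into mitosis, stood at 11.81, 11.59 and 11.21 in ascending and 11.36, 11.57 and 11.30 in descending aorta, a difference of 0.13 ± 0.16 (SE; adjusted p = 0.791, limma). It was 0.29 ± 0.12 (SE; adjusted p = 0.25, limma) without ascending replicate 3 and -0.0033 without ascending replicate 1.

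**Figure D2:**
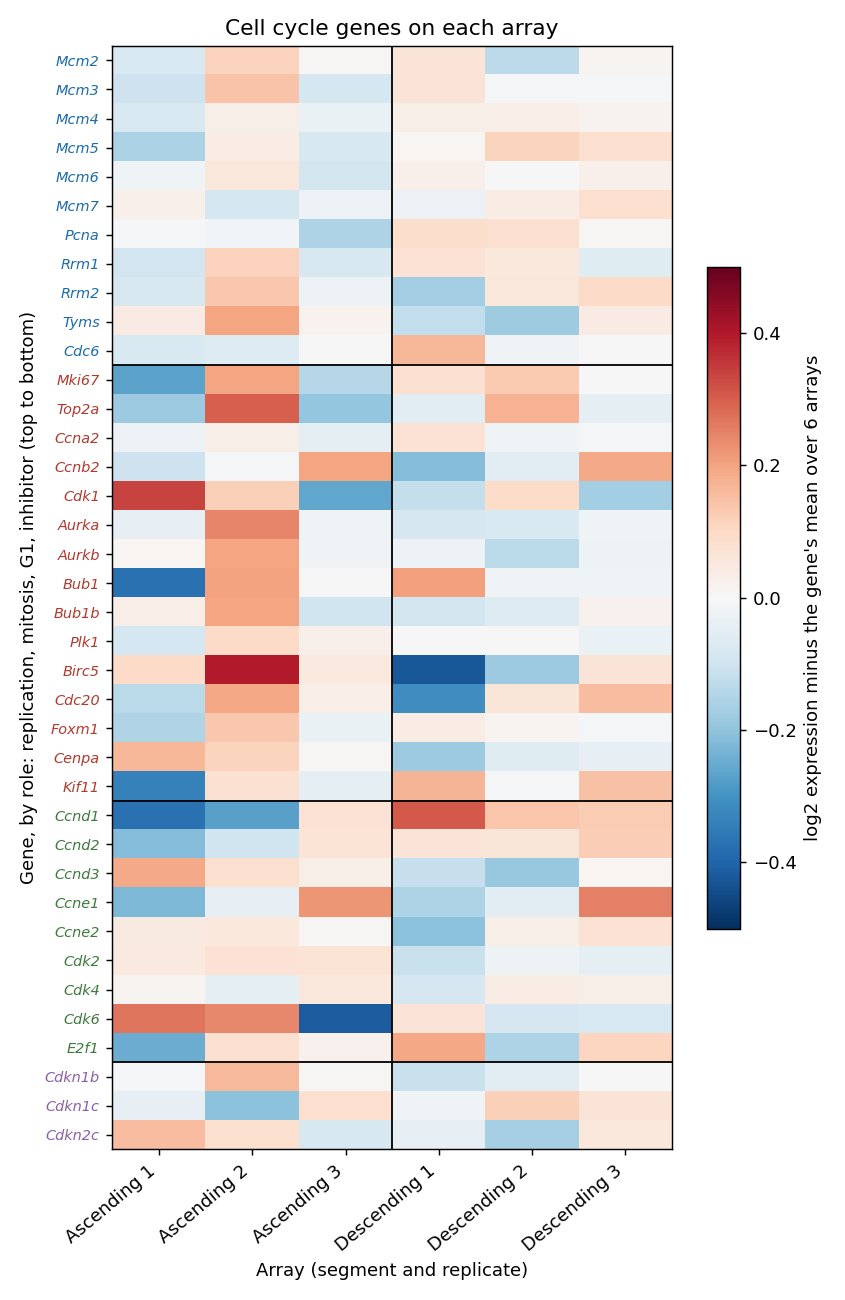
Heat map of 38 cell cycle genes (rows, ordered by role from replication at the top to inhibitors at the bottom) on the 6 arrays (columns); colour gives the log2 value minus the gene's mean over all arrays. The mitotic block is mostly red on ascending replicate 2, with Ccnb2 just below its mean there. It is mostly blue on ascending replicate 1, except for Cdk1, Cenpa, Birc5, Bub1b and, faintly, Aurkb.

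The same pattern was seen in spindle and division genes outside the members. Of 53 such genes, ascending replicate 2 was the highest ascending array for 46 and lay above ascending replicate 1 for 51, with a median gap of 0.33. Their median deviation from each gene's mean was -0.17, 0.19 and -0.046 on ascending replicates 1 to 3 and stayed between -0.012 and 0.042 on the descending arrays. Markers of other cells also differed between these arrays. The mean log2 level of the 6 cardiac markers was highest on ascending replicate 2 (9.21, against 8.80 on ascending replicate 1). Of these markers, Nppa was highest on ascending replicate 1 instead, at 6.98 against 6.87. Each of the 6 macrophage markers was lowest on ascending replicate 2 (mean 7.87 against 8.55). The mean of 6 erythroid markers was also lowest there (9.82, against 10.1 to 10.4 on the other arrays). The 5 smooth muscle markers did not move together. Myh11, smooth muscle myosin, was lowest there (9.42, against 10.39 on ascending replicate 1). Myocd was highest there (10.82), and Acta2, Tagln and Cnn1 were neither highest nor lowest. The part of these cells in the mitotic values was not tested.

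**Figure D3:**
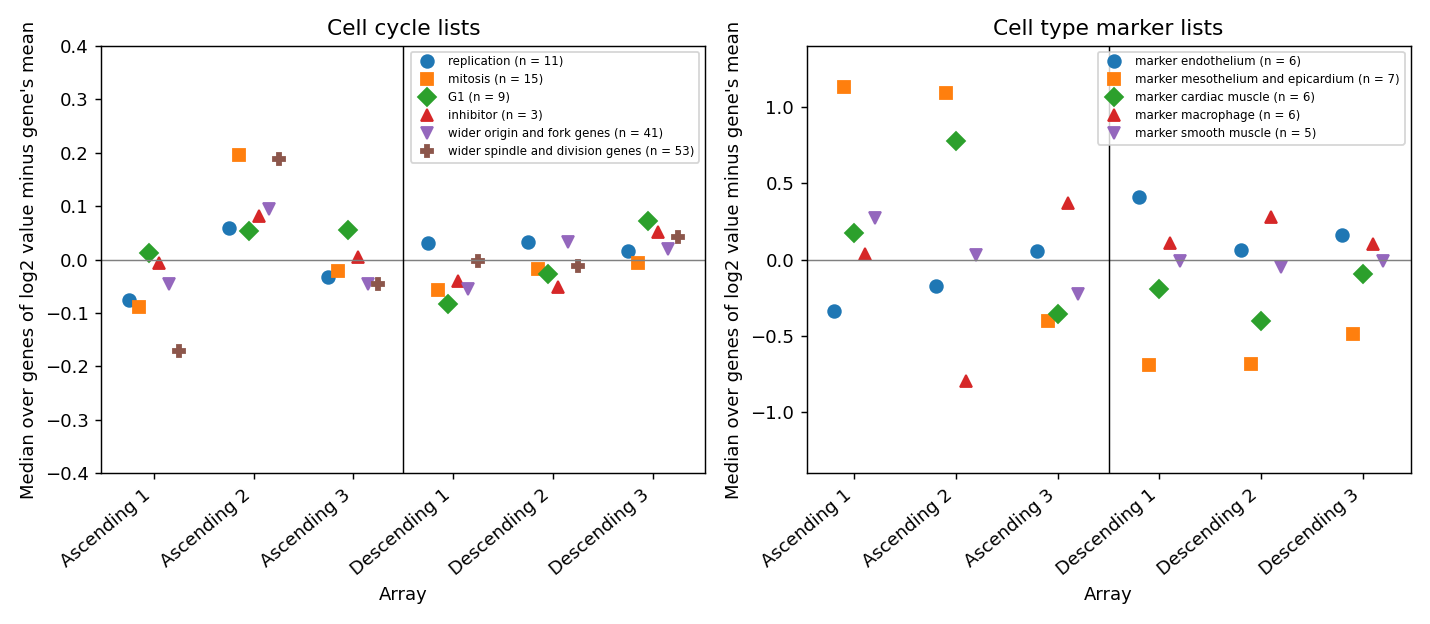
Median deviation from each gene's mean on the 6 arrays for the cell cycle lists (left, vertical axis from -0.4 to 0.4 log2 units) and for markers of cell types (right, from -1.4 to 1.4). Mitotic and spindle genes reach 0.20 and 0.19 on ascending replicate 2, where the cardiac markers are highest at 0.78 and the macrophage markers lowest at -0.80.

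Among the genes of G1, the D-type cyclins did not share a sign. Ccnd1, cyclin D1, which couples growth factor signals to Cdk4 and Cdk6, stood at 11.27, 11.37 and 11.71 in ascending and at 11.94, 11.78 and 11.77 in descending aorta. All 3 ascending values lay below the descending values, with ascending replicate 3 closest to them. The difference of -0.38 ± 0.13 (SE; 95% interval -0.68 to -0.085), or 1.30-fold lower, did not pass over all 6 arrays (adjusted p = 0.530, limma). Without ascending replicate 3 Ccnd1 fell by 0.51 ± 0.10 (SE) on the log2 scale, 1.43-fold, and was the only member to pass (1 of 38, adjusted p = 0.0283, limma), where 4.68% of all genes were called and 2.61% were called lower. With descending replicate 1 left out as well, the call was lost at a difference of -0.45 (adjusted p = 0.0731, limma), where 2.35% of all genes were called. Over all 16 alternative settings the adjusted p of Ccnd1 ran from 0.0283 to 0.841.

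Ccnd2, cyclin D2, stood at 12.53, 12.65 and 12.82 against 12.82, 12.81 and 12.88, a difference of -0.17 ± 0.092 (SE; adjusted p = 0.581, limma). Ascending replicate 3 shared the descending level of Ccnd2, as it nearly did for Ccnd1. For Ccnd2, omission of ascending replicate 3 gave -0.24 and omission of ascending replicate 1 gave -0.10. Ccnd3, cyclin D3, had the opposite sign. It stood at 12.05, 11.94 and 11.89 in ascending and at 11.75, 11.67 and 11.87 in descending aorta, did not overlap between segments, and differed by 0.20 ± 0.087 (SE; adjusted p = 0.538, limma), or by 0.23 without ascending replicate 3. Within each array the Ccnd3 value minus the Ccnd1 value was taken and centred on its descending average. It came to 0.85, 0.64 and 0.24 in ascending and to -0.13, -0.038 and 0.17 in descending aorta. This pair was picked with its values in view and was not tested. The means of all 6 endothelial markers were lower in ascending aorta, as for Ccnd1 and Ccnd2, but by unlike amounts. The differences ran from -0.076 for Tek to -1.68 for Emcn. Tie1 differed by -0.14, and by 0.067 without descending replicate 1. The mean log2 level of the 6 endothelial markers was 10.6, 10.6 and 11.2 on the ascending arrays and 11.5, 11.2 and 11.3 on the descending arrays, with Kdr, a receptor for VEGF, at 9.72, 10.11 and 10.82 against 11.10, 10.87 and 10.98. Mesothelial and epicardial markers ran the other way, at 9.997, 10.1 and 8.67 against 8.30, 8.34 and 8.57. The part of these cells in the D-type cyclin values was not tested.

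**Figure D4:**
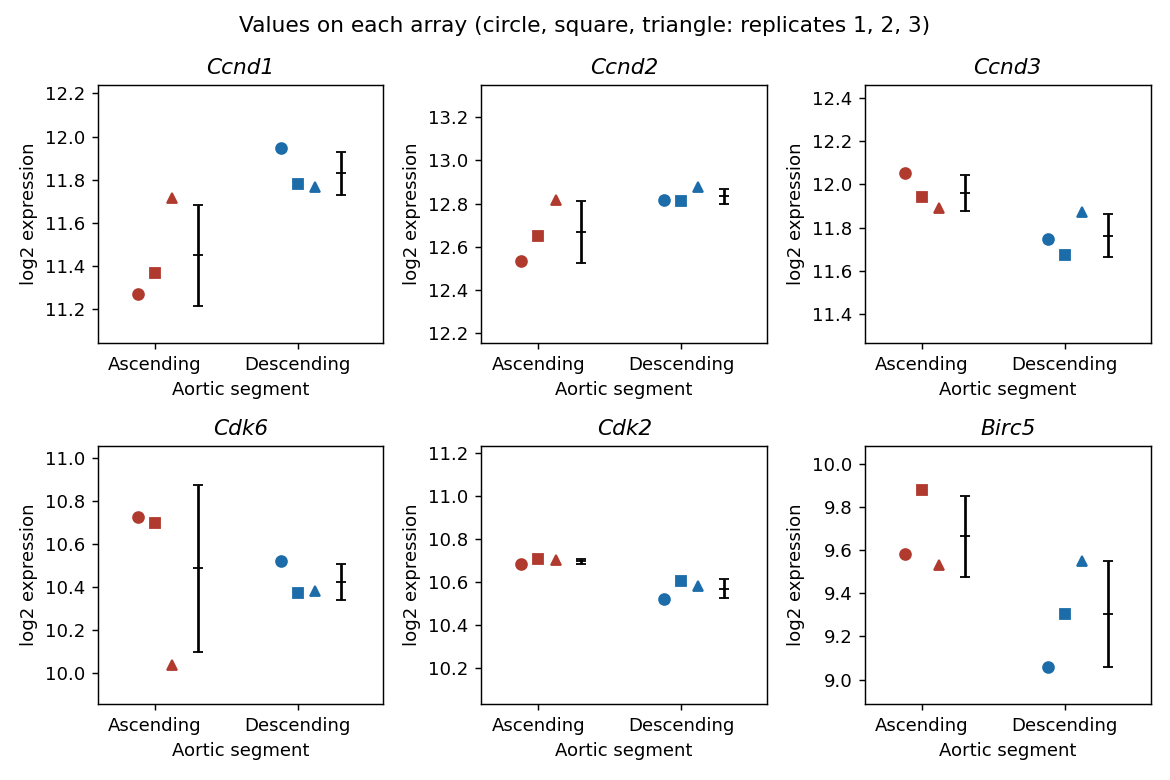
Log2 expression of Ccnd1, Ccnd2, Ccnd3, Cdk6, Cdk2 and Birc5 on each array, with ascending aorta in red and descending aorta in blue; black bars give the mean and SD of 3 arrays, and every panel spans 1.2 log2 units. Ascending replicate 3 (red triangle) lies near the descending values for Ccnd1 and Ccnd2 and far below all other arrays for Cdk6, at 10.04.

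The kinase partners of the D-type cyclins did not share one pattern. Cdk4 was steady, at 13.18 to 13.32 on all arrays, with a difference of 0.012 ± 0.076 (SE). Cdk6 stood at 10.72, 10.70 and 10.04 in ascending and 10.52, 10.37 and 10.38 in descending aorta. Ascending replicates 1 and 2 were the highest and ascending replicate 3 the lowest of the 6 arrays, so the ascending SD of 0.39 was the largest of any member. The difference of Cdk6 went from 0.062 ± 0.18 (SE) over all arrays to 0.29 ± 0.094 (SE; adjusted p = 0.159, limma) without ascending replicate 3. Cdk2, the partner of the E- and A-type cyclins, was nearly constant within ascending aorta, at 10.68, 10.71 and 10.70, and stood at 10.52, 10.61 and 10.58 in descending aorta. The difference of 0.13 ± 0.070 (SE) did not pass (adjusted p = 0.582, limma), though the segments did not overlap, and was 0.12 without ascending replicate 3.

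Ccne1, cyclin E1, was highest on the third array of each segment, at 9.86, 10.05 and 10.31 in ascending and 9.94, 10.04 and 10.34 in descending aorta. Ccnb2, a mitotic B-type cyclin, did the same, at 11.52, 11.61 and 11.82 against 11.41, 11.57 and 11.81. These are the arrays that were most alike over all genes, and the pair was chosen with its values in view. Ccne2, the second E-type cyclin, differed by 0.069 ± 0.093 (SE) and E2f1, the activating E2F factor of S-phase genes, by -0.097 ± 0.13 (SE). Over the 9 genes of G1 the median difference was 0.012, with 5 means higher and 4 lower; it was -0.026 without descending replicate 1, -0.019 without ascending replicate 2 and -0.013 without ascending replicate 3.

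Of the inhibitors, Cdkn1c (p57Kip2), which is expressed in tissues that leave the cycle to differentiate, stood at 12.57, 12.41 and 12.70 in ascending and 12.60, 12.73 and 12.68 in descending aorta. The difference was -0.11 ± 0.096 (SE; 95% interval -0.33 to 0.11; adjusted p = 0.709, limma). Ascending replicate 2, which had the highest mitotic values, had the lowest Cdkn1c. Without that array the difference was -0.035, and without ascending replicate 3 it was -0.18. Cdkn1b (p27Kip1) stood at 10.28, 10.45 and 10.29 against 10.17, 10.23 and 10.29, a difference of 0.11 ± 0.082 (SE; adjusted p = 0.678, limma). The value became 0.13 with ascending replicate 3 left out and 0.053 with ascending replicate 2 left out. A second, dimmer probe set of Cdkn1b differed by 0.34, with its lowest value, 6.46, on descending replicate 1. Cdkn2c (p18INK4c), which blocks Cdk4 and Cdk6, stood at 8.75, 8.68 and 8.52 against 8.56, 8.43 and 8.65 and differed by 0.10 ± 0.096 (SE; adjusted p = 0.734, limma). It was 0.17 without ascending replicate 3, 0.052 without ascending replicate 1 and 0.045 without descending replicate 2. The 3 inhibitors did not share a direction, and the segments overlapped for each. Their median difference was 0.10, and 0.13 without ascending replicate 3.

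Over all members, the ascending values lay entirely above the descending values for 4 of 38 genes (Aurkb, Cenpa, Ccnd3 and Cdk2), where 5.87% of all genes did. They lay entirely below for 2 (Pcna and Ccnd1), where 8.95% of all genes did. Together this was 15.8% of the members against 14.8% of all genes, a share close to the background. Ascending replicate 3 lay nearer to the descending mean than to the mean of the other ascending arrays for 22 of 38 members, or 57.9%, against 58.6% of all genes. For G1 genes this was so for 7 of 9 and for replication genes for 4 of 11.

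Further genes of the cycle were grouped in the same roles. Of 41 genes of origins and replication forks 21 means were higher and 20 lower, with a median difference of 0.00047 and 0 genes passing (limma, adjusted p of at least 0.532; 1 at an unadjusted p under 0.05). Gins1, a subunit of the active helicase, differed by 0.27 ± 0.11, Wdhd1 by -0.23 ± 0.10 and Rpa3, a subunit of the single-strand binding protein, by 0.40 ± 0.20 (SE). Of 53 spindle and division genes 23 means were higher, with a median of -0.030, 0 passed and 1 had an unadjusted p under 0.05 (limma). An unadjusted p under 0.05 was thus reached by 2.44% of the origin and fork genes and 1.89% of the spindle and division genes. Of all genes 9.29% reached it (limma). Kif22, a kinesin of chromosome arms, differed by 0.22 ± 0.093, Aspm, a protein of the spindle poles, by -0.27 ± 0.14 and Cdca3 by 0.24 ± 0.12 (SE).

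Of 23 regulators of G1 and E2F, 10 means were higher and the median was -0.0016; 0 passed and 0 had an unadjusted p under 0.05 (limma). E2f4, a repressing E2F factor, differed by 0.23 ± 0.12, the retinoblastoma gene Rb1 by -0.23 ± 0.12 and Cks1b by 0.18 ± 0.11 (SE). Of 17 further inhibitors and arrest genes 6 means were higher, with a median of -0.031. In this list too 0 passed and 0 had an unadjusted p under 0.05 (limma), against 9.29% of all genes. Sesn1, a target of p53, differed by -0.27 ± 0.13, and the INK4 inhibitors Cdkn2d and Cdkn2b by 0.15 ± 0.083 and 0.19 ± 0.11 (SE). Without ascending replicate 3 these 4 lists still had 0 genes that passed (limma), where 4.68% of all genes did, and 3, 3, 1 and 5 genes had an unadjusted p under 0.05, where 17.2% of all genes did.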

How the data were processed

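Total RNA of 6 samples (6 ug each, Trizol extraction) was hybridised as biotinylated cRNA to Affymetrix mouse arrays, per the labels' protocols. The deposited values are log2 expression of probe sets, made by the authors with RMA in Partek 6.6, per the submitters' processing notes. RMA gives the arrays like distributions, which hides a shift common to most genes, and it compresses dim values. The genome build behind the probe sets is not given in the sources used here. All 6 value columns were used. Array medians lay between 7.14 and 7.22.

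Of 35556 probe sets 21789 carried 1 symbol in the platform annotation. The probe set with the highest mean stood for each gene (19938 genes), with no filter on dim genes. Segments were compared with limma 3.58.1 in R 4.3.3 (lmFit, eBayes, all 6 arrays, two-sided, Benjamini-Hochberg over all genes, threshold 0.05). Gene lists are described by counts and medians without a test. Exact permutation of 6 arrays has a smallest p of 0.1 and was not used. Full statistics go to the 4 members of each role with the smallest p and to Mki67, Pcna, Cdk1, Ccnd1 and Cdkn1c. Cdk6 was added with its values in view. Of each further list the 3 genes with the smallest p are named with the difference and its SE; other members are given as values or differences. The members, lists and alternatives were chosen with earlier results of these data known. Motifs were searched with Python 3.11.15. In simulated data of 19938 genes with the spread of these 6 arrays, 31.3% of log2 changes of 0.5, 84.5% of changes of 1 and 98.2% of changes of 2 were recovered, with 3.65% false calls. The simulated noise was drawn for each gene alone, so it lacked the deviation that many genes share on ascending replicate 3. These shares therefore cannot be taken as the recovery in the real fit. There the mesothelial marker Upk1b differed by 1.94 with an adjusted p of 0.53 (limma). Some genes of the further and marker lists are not reported here.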

Additional observations from a re-analysis of the deposited data

How the results depend on the processing

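Over all 6 arrays 0 genes and 0 members passed, and this held for repeated quantile normalization, median-centring, filters at the 25th and 50th percentile, averaged probe sets, robust variance with a trend, variance that was not moderated, and array weights. Leaving out 1 array gave 0 to 933 genes and 0 to 1 members, with the 933 genes and the 1 member (Ccnd1) without ascending replicate 3; leaving out ascending replicate 3 and descending replicate 1 together gave 469 genes and 0 members. The inhibitor median ran from 0.045 without descending replicate 2 to 0.14 without descending replicate 3. The G1 median was -0.052 with ascending replicate 3 and descending replicate 1 left out and ran from -0.026 to 0.039 over single arrays left out. The replication median stayed negative in all 16 alternatives, from -0.082 to -0.010. The mitotic median changed sign in 3 of 16 and ran from -0.020 to 0.079. Of 17 single members, Cdk1 changed sign, at -0.0033 without ascending replicate 1, and reached 0.29 without ascending replicate 3. The causes were not tested. With the replicate number as a replicate block 0 genes and 0 members passed. For arrays of the same number, the deviations from their segment means had correlations of -0.080, -0.055 and 0.024. Deviations from a mean of 3 arrays cancel within a segment, so these correlations are not separate checks. They cannot decide whether the numbers mark pairs. The main fit did not use the numbers as pairs. Depth does not apply to arrays; their number limits the precision.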
